A study of Mus musculus with 24 samples.

Results

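A set of 8 genes of Schwann cells and of the myelin sheath was followed in unwounded and wounded mouse skin. They were taken by symbol from the 18368 genes of the deposited expression table: Mbp, Pmp22, Prx, Mal, Ncmap, Sox10, Ngfr and S100b. All 8 were found, and all 8 had at least 0.5 FPKM (fragments scaled to transcript length and to the mapped fragments of the library) in at least 4 libraries, the filter on low values. RNA was sequenced from whole skin of CD1 mice, an outbred stock, that were 7 weeks old and, per the labels, synchronised in telogen, the resting phase of the hair cycle. Each animal was shaved and received 2 mm excisional wounds at a single site, a single wound on the cheek or a pair on the abdomen or back, and on day 3 a 2 mm punch took the wound or healthy skin beside it. There were 4 mice per site and 12 mice in all, each with 1 unwounded and 1 wound library, so the 24 libraries form 6 groups of 4. Unwounded skin lay next to a wound on a shaved animal, and skin of uninjured mice was not analysed here.

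Schwann cells wrap the axons of peripheral nerves. Some of them build compact myelin around large axons, and others ensheathe bundles of thin axons without myelin. In skin they follow the sensory and autonomic fibres that reach the dermis, the hair follicles and the muscle layer below. After a nerve is cut, Schwann cells downstream of the cut are known to switch off myelin genes and to become repair cells that guide regrowing axons. Mbp (myelin basic protein) and Pmp22 (peripheral myelin protein of compact myelin) hold the sheath together, Prx (periaxin) links the outer sheath to the basal lamina, and Ncmap and Mal are further membrane proteins of myelin. Sox10 is the transcription factor that defines the Schwann cell lineage, and melanocytes use it too. S100b is a calcium-binding protein and a classical Schwann cell marker that fat cells also make. Ngfr, the p75 neurotrophin receptor, is high in non-myelinating and repair Schwann cells and is also made by cells of the hair follicle.

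The start regions of 3 myelin genes are shown because their transcripts moved together or because the gene-level value adds up several starts. Pmp22 (gene ID 18858, GRCm38.p6 chromosome 11, 63128982 to 63159547) has 7 transcripts in the deposited table and 4 start sites in RefSeq, and its FPKM value is their sum. Its most upstream window, chr11:63128732-63128981 on the plus strand, is 48.8% G and C. The window labelled downstream start is that of start number 3, chr11:63132319-63132568, at 64.8% G and C. Start number 4, whose window is 73.6% G and C, lies further downstream and is not shown. The median over 32851 mouse start regions of the same length is 52.4%. Prx (gene ID 19153, chromosome 7, 27499305 to 27520041) is shown with the window chr7:27499074-27499323 on the plus strand, and Ncmap (gene ID 230822, chromosome 4, 135369576 to 135398240) with chr4:135398228-135398477 on the minus strand. Each line gives the 250 bases before a RefSeq start, 5′ to 3′, and capitals mark the letters GTGGGNG, or their reverse complement, of an EGR-type motif.
Pmp22, upstream start: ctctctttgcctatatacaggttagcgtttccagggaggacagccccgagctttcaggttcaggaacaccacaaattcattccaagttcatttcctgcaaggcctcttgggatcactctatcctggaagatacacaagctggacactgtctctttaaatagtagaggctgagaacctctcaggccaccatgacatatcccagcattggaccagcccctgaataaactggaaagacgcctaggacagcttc
Pmp22, downstream start: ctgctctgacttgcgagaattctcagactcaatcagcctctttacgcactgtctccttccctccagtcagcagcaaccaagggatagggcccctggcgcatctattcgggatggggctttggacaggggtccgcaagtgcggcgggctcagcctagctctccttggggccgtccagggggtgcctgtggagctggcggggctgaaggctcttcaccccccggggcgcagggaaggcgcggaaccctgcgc
Prx: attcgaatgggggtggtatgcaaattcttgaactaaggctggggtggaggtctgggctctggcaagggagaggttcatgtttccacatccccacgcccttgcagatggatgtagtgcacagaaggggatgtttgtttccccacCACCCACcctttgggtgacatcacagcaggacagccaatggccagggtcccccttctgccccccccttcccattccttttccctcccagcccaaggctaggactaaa
Ncmap, first start: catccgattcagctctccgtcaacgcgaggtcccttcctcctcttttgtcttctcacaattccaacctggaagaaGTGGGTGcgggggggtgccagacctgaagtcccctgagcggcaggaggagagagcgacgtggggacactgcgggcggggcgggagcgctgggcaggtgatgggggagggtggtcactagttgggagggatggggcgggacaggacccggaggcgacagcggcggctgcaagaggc

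The EGR-type letters lay 107 bases before the start of Prx on the minus strand and 175 bases before the first start of Ncmap on the plus strand, and were in 28.1% of the 32851 start regions. The SOX-type letters ACAAAG or ACAATG, searched on both strands, were in none of the 10 windows of the 6 genes with an entry, against 25.2% of all start regions. A match of letters is a description of the sequence, and no match says only that these letters are not in this window. The remaining genes were Ngfr (gene ID 18053, chromosome 11, 95568818 to 95587698), Mal (17153, chromosome 2, 127633226 to 127656695), S100b (20203, chromosome 10, 76253836 to 76261319), Sox10 (20665, chromosome 15, 79154913 to 79164490) and Mbp (17196).

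The size of the libraries could not be judged from FPKM values. Depth relative to the other libraries, estimated from the lowest values of 42 genes, lay between 0.923 and 1.05. Only values close to the lowest value of a gene entered this estimate, so it could not show a large difference in depth. The absolute depth is unknown, so values carry no interval for counting error. Skin markers were high in every library, with Krt10, a keratin of differentiated epidermis, at 1652 FPKM or more and Col1a1, the main collagen chain of dermis, at 1286 FPKM or more. There were 2 libraries that stood apart in myelin genes. Unwounded back skin of mouse 3 had the highest level of the 24 libraries for Mbp, Pmp22, Prx, Mal, Sox10 and S100b, with Mbp 2.72 times and Mal 2.91 times the mean of the other 3 unwounded back libraries. The cheek wound of mouse 1 had 2.52 times the Mbp, 2.49 times the Prx and 2.34 times the Ncmap of the other 3 cheek wounds. It also had 2.12 times their Adipoq, a fat cell gene, whereas in back mouse 3 Adipoq was 0.86 times its neighbours. Telogen was not met by the marker levels of every library. The 7 markers of the growing hair follicle, among them the inner root sheath keratins Krt25 and Krt71, summed to 4901 FPKM in unwounded cheek skin of mouse 4, 82.7 in unwounded back skin and 25.9 in the back wound of mouse 2, and 36.9 in unwounded cheek skin of mouse 3, against 3.19 to 7.78 FPKM in the other 20 libraries. In whole tissue, fewer Schwann cells and less of a transcript per Schwann cell cannot be told apart.

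Levels per transcript length differed widely between the 8 genes. Pmp22 was the most abundant, at 144 ± 34.4 FPKM (SD, n = 12) in unwounded skin, and Mbp came next at 45.6 ± 25.9 FPKM. Pmp22 exceeded Mbp in 24 of 24 libraries, and Mbp exceeded the other 6 genes in 24 of 24. Those 6 were close together in unwounded skin, from 2.60 ± 0.84 FPKM for Sox10 over 3.02 ± 0.92 for Ncmap, 3.11 ± 1.1 for S100b and 3.5 ± 1.76 for Prx to 4.44 ± 2.38 for Mal and 4.49 ± 1.18 for Ngfr. Neighbours in that order differed by less than their spread over libraries.

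**Figure D1:**
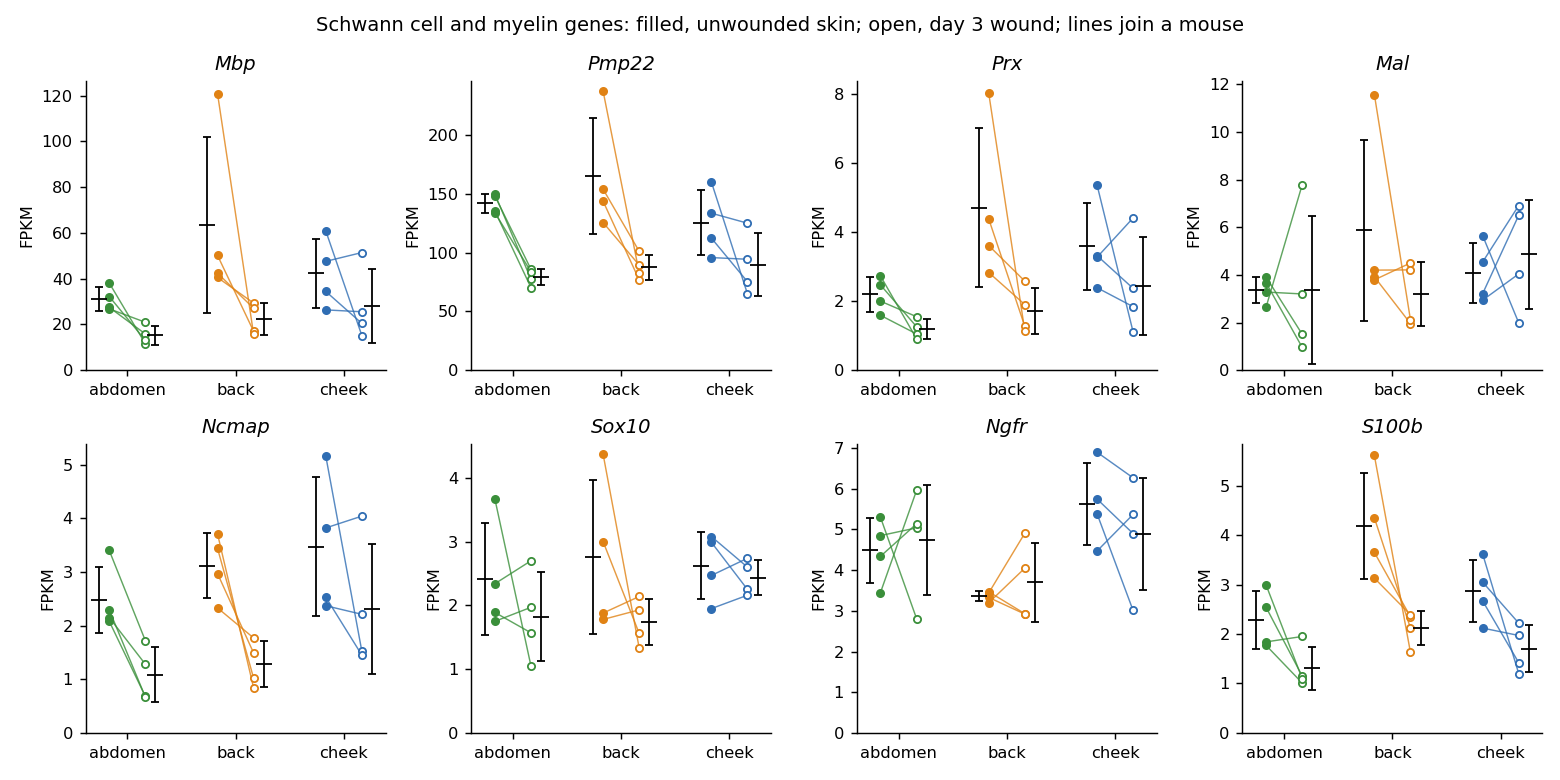
FPKM of the 8 genes (vertical axes from 0, one scale per gene) in unwounded skin (filled) and day 3 wounds (open) of 4 mice per site, with lines joining the 2 libraries of a mouse and black bars giving mean ± SD. Pmp22 fell in 12 of 12 mice, Sox10 and Ngfr fell in 6 of 12, and the single high points of Mbp (120.85 FPKM) and Mal (11.57 FPKM) are unwounded back skin of mouse 3.

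The main comparison asked how day 3 wounds differ from unwounded skin of the same mouse. Over the 12 mice, 5 of the 8 genes fell: Pmp22, Ncmap, S100b, Mbp and Prx. Their mean effects lay between -0.69 and -1.02 on the log2 scale, or 0.62 to 0.49 of the unwounded level. Sox10, Mal and Ngfr did not pass the test, at -0.30, -0.30 and -0.02. The effects were estimated in limma on log2(FPKM + 0.5) with a term for each mouse, and a gene was counted at a Benjamini-Hochberg adjusted p under 0.05 over all 14423 tested genes. Wounding changed a large share of all genes, since 29.4% of those tested were lower and 33.3% higher in the mean over sites. That split of 4247 lower and 4798 higher genes became 5445 and 3919 under quantile normalisation. The median of the 8 effects was -0.71, against 0.02 over all tested genes. At a threshold of 0.001 the count of these genes that fell was 3 (Pmp22, Ncmap and S100b), against 14.4% of tested genes. At that threshold it was 0 in abdomen and 0 in back, where 1.04% and 4.37% of tested genes fell.

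Mbp, the cytoplasmic protein that compacts the myelin membrane, fell most. In abdomen it measured 38.1, 27.5, 26.8 and 32.2 FPKM in unwounded skin of mice 1 to 4 and 11.6, 15.8, 20.95 and 13.0 FPKM in their wounds, and the groups did not overlap. In back skin it measured 40.5, 50.2, 121 and 42.4 FPKM, and 29.3, 17.0, 15.7 and 27.0 FPKM in wounds, again without overlap. Unwounded libraries all above the wounds were found for 11.0% of tested genes in abdomen and 15.4% in back. Cheek skin held 47.6, 60.9, 34.4 and 26.4 FPKM and cheek wounds 51.4, 15.1, 20.5 and 25.5 FPKM, so here mouse 1 was higher in the wound and the groups overlapped. Mbp was lower in the wound in 11 of 12 mice. The mean effect was -1.02 (SE 0.24, limma adjusted p = 0.0039), with a p of 0.0015 in an exact two-sided sign-change test over 12 mice, whose smallest possible p is 0.00049. By site it was -1.02 in abdomen (limma adjusted p = 0.088), -1.38 in back (0.021) and -0.66 in cheek (0.25). The Mbp gene also gives rise to Golli transcripts, which immune cells make, and the gene-level value adds them to those of myelin. Of 6 T cell markers 3 rose and 2 fell, with sums of 42.6 to 53.2 FPKM in unwounded abdomen, 28.2 to 42.4 in back and 18.8 to 41.3 in cheek and of 29.3 to 40.5, 24.6 to 39.5 and 24.2 to 30.2 FPKM in wounds. Their part in the Mbp values was not tested.

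Pmp22 was the steadiest of the genes. Unwounded abdomen held 135, 148, 150 and 134 FPKM and abdomen wounds 70.3, 85.8, 77.5 and 83.7 FPKM. In back it went from 126, 144, 237 and 154 FPKM to 89.4, 76.8, 82.7 and 101 FPKM. Unwounded cheek held 134, 160, 112 and 95.8 FPKM and cheek wounds 125, 64.9, 75.2 and 94.3 FPKM. The groups were apart in abdomen and back and overlapped in cheek, yet Pmp22 was lower in the wound in 12 of 12 mice. The mean effect was -0.74 (SE 0.11, limma adjusted p = 0.00010), and the exact sign-change p was 0.00049, the smallest that 12 mice can give. The falls in abdomen (-0.84, limma adjusted p = 0.0066) and back (-0.88, 0.0030) passed the test, and the cheek value was -0.50 (0.061). Pmp22 is also known as a growth-arrest gene of fibroblasts. Of 7 fibroblast markers 5 fell as well and 1 rose, against 29.4% lower and 33.3% higher of all tested genes. The part of fibroblasts in the fall of Pmp22 was not tested.

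Prx and Ncmap, both low, moved with Mbp. Prx went from 2.47, 2.00, 1.59 and 2.73 FPKM to 1.26, 1.55, 1.05 and 0.91 FPKM in abdomen. In back it went from 3.61, 4.38, 8.02 and 2.83 FPKM to 2.58, 1.27, 1.13 and 1.90 FPKM. Cheek skin had 3.27, 5.37, 2.39 and 3.32 FPKM and cheek wounds 4.41, 1.11, 1.84 and 2.37 FPKM. Prx was thus below all unwounded libraries in the wounds of abdomen and back and overlapped in cheek, where mouse 1 went up. Its mean effect was -0.80 (SE 0.21, limma adjusted p = 0.0052), with a fall in 11 of 12 mice, and among sites only back passed the test, at -1.18 (limma adjusted p = 0.018), beside -0.67 in abdomen (0.17) and -0.55 in cheek (0.25).

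Ncmap, a small membrane protein of peripheral myelin, had 2.08, 2.15, 3.40 and 2.29 FPKM in unwounded abdomen and 0.68, 1.28, 1.72 and 0.67 FPKM in abdomen wounds. Unwounded back had 2.33, 3.44, 3.71 and 2.97 FPKM and back wounds 1.77, 1.02, 0.84 and 1.49 FPKM. In cheek it had 3.82, 5.16, 2.53 and 2.37 FPKM against 4.04, 1.52, 1.45 and 2.21 FPKM. The pattern was that of Prx: no overlap in abdomen and back, and a cheek mouse 1 that did not fall. The mean effect was -0.84 (SE 0.14, limma adjusted p = 0.00027), with -0.94 in abdomen (0.013), -1.04 in back (0.0050) and -0.53 in cheek (0.11).

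S100b had 1.77, 1.84, 2.54 and 2.99 FPKM in unwounded abdomen and 1.01, 1.95, 1.15 and 1.1 FPKM in abdomen wounds. In back it fell from 4.35, 3.65, 5.61 and 3.13 FPKM to 2.12, 2.35, 1.63 and 2.39 FPKM. Cheek skin had 3.05, 3.62, 2.67 and 2.12 FPKM and cheek wounds 2.22, 1.2, 1.42 and 1.97 FPKM. Only the back groups were apart, but 11 of 12 mice fell, with a mean effect of -0.69 (SE 0.13, limma adjusted p = 0.00062). The single sites gave -0.63 in abdomen (limma adjusted p = 0.052), -0.82 in back (0.012) and -0.62 in cheek (0.052). Markers of fat cells, which also make S100b, moved with it: 7 of 7 fell, led by Cfd (-1.76), Retn (-1.47) and Cidec (-1.45). Their summed level was 1518 to 2520 FPKM in unwounded abdomen, 1648 to 2736 in back and 787 to 2176 in cheek, and 612 to 913, 696 to 918 and 590 to 1380 FPKM in the wounds of these sites. Their part in the fall of S100b was not tested.

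Sox10, Ngfr and Mal did not pass the test at any site or in the mean. Sox10 had 3.67, 1.75, 2.34 and 1.89 FPKM in unwounded abdomen and 1.05, 1.97, 2.70 and 1.57 FPKM in abdomen wounds. Back skin had 1.78, 3.00, 4.37 and 1.88 FPKM and back wounds 1.93, 1.56, 1.33 and 2.14 FPKM, and cheek had 2.47, 3.08, 2.99 and 1.95 FPKM against 2.74, 2.60, 2.25 and 2.16 FPKM. The groups overlapped at each site, and Sox10 fell in 6 and rose in 6 of the 12 mice. Its mean effect was -0.30 (SE 0.16, limma adjusted p = 0.12), with a 95% interval from -0.64 to 0.05. The intervals of the 5 genes above overlap this one, with that of S100b, the smallest fall at -0.69, running from -0.98 to -0.40.

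Melanocytes also make Sox10, and 5 of the 6 tested melanocyte markers fell in the mean, among them Mitf (-0.45, limma adjusted p = 0.00015) and Dct (-0.75, 0.0020). The summed level of the 8 listed markers was 26.15 to 40.9 FPKM in unwounded abdomen, 22.6 to 47.1 in back and 27.45 to 81.3 in cheek, against 17.8 to 31.4, 25.2 to 34.0 and 20.1 to 27.8 FPKM in wounds. The part of melanocytes in the Sox10 values was not tested.

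Ngfr moved to both sides in wounds. It had 5.30, 4.85, 4.34 and 3.45 FPKM in unwounded abdomen and 2.81, 5.04, 5.14 and 5.96 FPKM in abdomen wounds. In back it had 3.44, 3.47, 3.33 and 3.20 FPKM against 4.91, 2.93, 2.92 and 4.05 FPKM, and in cheek 6.90, 5.75, 5.39 and 4.47 FPKM against 6.27, 4.90, 3.01 and 5.37 FPKM. The 4 unwounded back libraries were close together, and their wounds lay on both sides of them. The mean effect was -0.02 (SE 0.12, limma adjusted p = 0.87), with a 95% interval from -0.29 to 0.24 and 6 of 12 mice on either side.

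Mal was the most variable of the 8. Unwounded skin ranged from 2.65 to 3.91 FPKM in abdomen, 3.79 to 11.57 FPKM in back and 2.94 to 5.65 FPKM in cheek, and wounds from 0.96 to 7.78, 1.96 to 4.50 and 1.99 to 6.91 FPKM. In abdomen, mouse 1 rose from 2.65 to 7.78 FPKM while mouse 4 dropped from 3.67 to 0.96 FPKM. The mean effect was -0.30 (SE 0.30, limma adjusted p = 0.42), and its 95% interval from -0.97 to 0.38 spans the values of the 5 genes that fell except Mbp. Mal is also made in lymphocytes and epithelia.

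**Figure D2:**
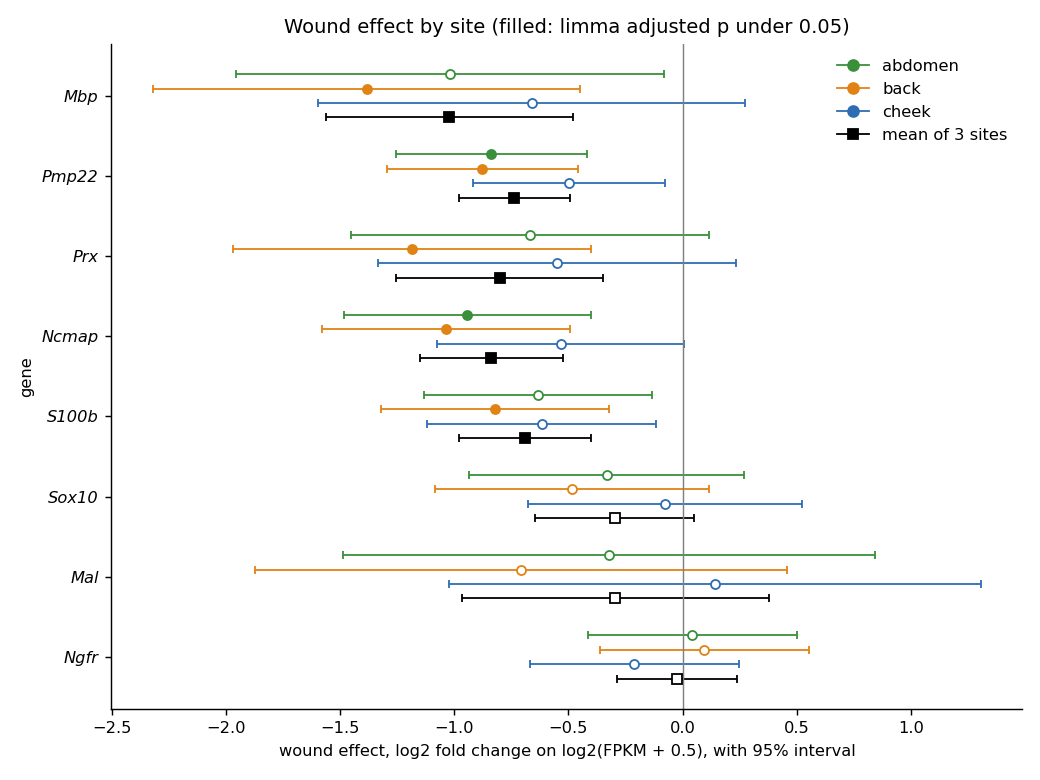
Wound effect (log2 fold change on log2(FPKM + 0.5), horizontal axis) with its 95% interval for each of the 8 genes in abdomen, back, cheek and the mean of the 3 sites; filled symbols have a limma adjusted p under 0.05. Means of Mbp (-1.02), Ncmap (-0.84), Prx (-0.80), Pmp22 (-0.74) and S100b (-0.69) have intervals below 0, and those of Sox10, Mal and Ngfr include 0.

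By site, 2 of the 8 genes fell in abdomen (Pmp22 and Ncmap), against 16.0% of all tested genes. In back 5 fell (Mbp, Pmp22, Prx, Ncmap and S100b), against 17.9%. The lower and higher genes of the whole table numbered 2304 and 2437 in abdomen, 2578 and 4044 in back and 2432 and 2840 in cheek. Quantile normalisation gave 3141 and 2127, 3692 and 3005, and 3316 and 2526. In cheek limma called 0, against 16.9% of tested genes that fell, with 2 genes (Pmp22 and S100b) at an unadjusted p under 0.05, a threshold that 46.4% of tested genes passed. The medians of the 8 effects were -0.65, -0.85 and -0.52 in these sites. These counts do not show that sites differ. A moderated F test of the difference between the 3 wound effects called 0 of the 8 genes, with 0 at an unadjusted p under 0.05 and limma adjusted p from 0.65 to 0.90, against 0.0208% of tested genes called and 12.9% at an unadjusted p under 0.05. The widest difference, that of Mal between cheek and back, was 0.85 with a 95% interval from -0.80 to 2.50.

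The counts by site rested on single mice. Without back mouse 3 the back count was 2 (Pmp22 and Ncmap), the effect of Mbp there was -0.88, of Prx -0.78 and of S100b -0.59, and the abdomen and cheek counts became 4 and 2. Without back mouse 2 there were 3 called in back. The abdomen count was 1 without abdomen mouse 1 or mouse 4, and the cheek count 1 without abdomen mouse 2 or cheek mouse 1 and 2 without cheek mouse 4. The cheek effects depended on mouse 1 and mouse 2 of that site. Without cheek mouse 1 they were -0.92 for Mbp, -0.86 for Prx, -0.74 for Ncmap, -0.63 for Pmp22 and -0.70 for S100b, and only Pmp22 passed (limma adjusted p = 0.049). Without cheek mouse 2 they were -0.22, -0.11, -0.22, -0.23 and -0.40, and none passed. Leaving out any single mouse, or back mouse 3 and cheek mouse 1 together, kept the count over the 12 mice at 5.

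Since Sox10 marks the lineage, each gene was also set against Sox10 in the same library. This comparison was chosen after the values had been seen. It depends on a single reference, which melanocytes also make and which was low, at 2.60 FPKM in unwounded skin. Of 9 other tested genes of the lineage or its non-myelinating cells, 5 fell in the mean over sites, against 29.4% of all tested genes. These were Scn7a (-0.68), Adgrg6 (-0.48), Gfra3 (-0.41), Lgi4 (-0.39) and Cdh19 (-0.35), and 2 rose, against 33.3%. The mean change relative to Sox10 was -0.72 for Mbp, with 12 of 12 mice below 0, and -0.54 for Ncmap and -0.44 for Pmp22, with 11 of 12 mice each. It was -0.50 for Prx (9 of 12), -0.39 for S100b (10 of 12), 0.00 for Mal (7 of 12) and 0.27 for Ngfr (4 of 12). In limma on the log ratios, 3 of 7 genes passed, Mbp (adjusted p = 0.0018), Ncmap (0.033) and Prx (0.047), all lower, against 4.23% of tested genes that were lower on this scale. Each of these ratios carries the same error of Sox10, which limma pools over all genes as if it were independent, so its p-values here are unreliable. In exact two-sided sign-change tests over the 12 mice p was 0.00049 for Mbp, 0.0039 for Ncmap, 0.011 for Pmp22, 0.016 for Prx and 0.041 for S100b, unadjusted. The unadjusted limma p of these genes was 0.00032, 0.010, 0.028, 0.017 and 0.062, in the same order. The median of all tested genes was 0.32 on the scale relative to Sox10, so a typical gene rose against Sox10. Only Mbp passed without any one mouse (limma adjusted p from 9.8e-05 to 0.034). The count was 1 without abdomen mouse 2, 3 or 4, back mouse 2 or cheek mouse 2 or 3, and 5 without abdomen mouse 1. The pseudocount of 0.5 shortens changes of low genes such as Sox10 more than those of Mbp. With pseudocounts of 0.1 and 1 the change of Mbp lay between -0.75 and -0.69. Pmp22 passed with a pseudocount of 1 (limma adjusted p = 0.018), and the limma adjusted p of Prx ran from 0.0455 to 0.0503.

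**Figure D3:**
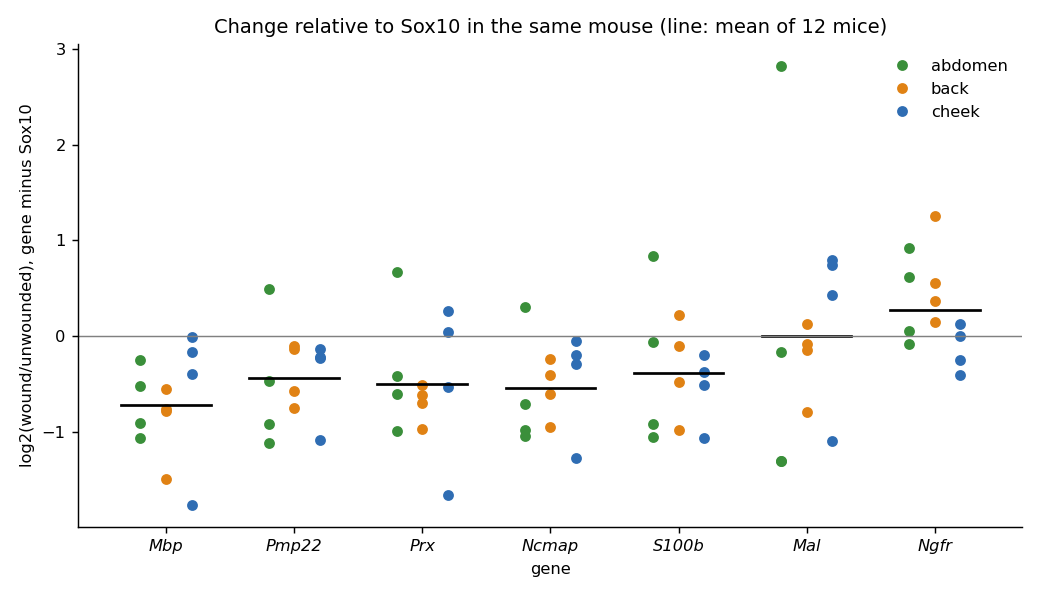
Change of 7 genes from unwounded skin to wound minus that of Sox10 in the same mouse (log2 scale, vertical axis), with 1 point per mouse coloured by site and a black line at the mean of 12 mice. Mbp lies below 0 in 12 of 12 mice (mean -0.72), and Ngfr lies below 0 in 4 of 12 (mean 0.27).

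The second question was whether the sites differ before wounding. No gene of the 8 passed in any of the 3 pairs of unwounded sites in limma on 12 libraries. Between back and abdomen 2.67% of tested genes were called, and 4 of the 8 had an unadjusted p under 0.05 (Mbp, Prx, S100b and Ngfr), against 22.0% of tested genes. The values in back were above those in abdomen for 3 of these. S100b was 0.75 higher (SE 0.20, limma adjusted p = 0.067), Prx 0.88 higher (0.11) and Mbp 0.87 higher (0.18, 95% interval 0.12 to 1.63), and the back libraries of all 3 lay above those of abdomen, as for 2.59% of tested genes. Without back mouse 3 these differences were 0.61, 0.61 and 0.51. Between cheek and abdomen 2.57% of tested genes were called, and 0 of the 8 had an unadjusted p under 0.05, against 19.0%. Between cheek and back 1.05% were called, and 2 of the 8 (Ngfr and S100b) had an unadjusted p under 0.05, against 21.6%. Ngfr was 0.65 higher in cheek than in back (SE 0.14, limma adjusted p = 0.051), the 4 cheek libraries from 4.47 to 6.90 FPKM lying above the 4 back libraries from 3.20 to 3.47 FPKM, as for 12.4% of tested genes. It passed the threshold under 3 other settings and without abdomen mouse 4 or cheek mouse 4. Over the alternatives in processing its limma adjusted p ran up to 0.20, and without 1 mouse up to 0.12. The difference went down to 0.48 in the former fits and to 0.56 in the latter. Hair follicle cells also make Ngfr, and the 3 tested markers of growing follicles were higher in cheek by a median of 1.77, with 0 of 3 called by limma and 0 at an unadjusted p under 0.05. Cheek mouse 4, whose markers were far above the rest, had the lowest Ngfr of the 4 cheek libraries, and without it the difference was 0.75 (limma adjusted p = 0.031). The part of hair follicle cells in the Ngfr values was not tested.

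Between wounds of different sites limma also called 0 of the 8 genes in each of the 3 pairs. Cheek against abdomen wounds had 2 genes at an unadjusted p under 0.05 (Ncmap and Prx), against 31.6% of tested genes, and all 8 differences were above 0, with a median of 0.53 against 0.07 over all tested genes, of which 10.8% were called. Ncmap was 0.79 higher in cheek wounds (SE 0.30, limma adjusted p = 0.095), Mbp 0.74 (0.17) and Prx 0.69 (0.14). Without cheek mouse 1 these differences were 0.53, 0.40 and 0.40, and those of Pmp22 and Ngfr fell below 0, to -0.03 and -0.08. Back against abdomen wounds had 1 such gene (S100b, 0.56 higher, limma adjusted p = 0.16), against 16.5% of tested genes, and 1.27% were called. Cheek against back wounds had 0, against 26.1%, and 2.50% were called.

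The 8 genes differed in how closely they followed each other from library to library. The correlations are Pearson's r of log2(FPKM + 0.5) over 12 libraries of 1 state. They describe these libraries, whose genes share the same punch, depth and site. Mbp and Prx had r = 0.89 in unwounded skin and 0.90 in wounds, and 0.79 and 0.80 without back mouse 3 and without cheek mouse 1. Mbp and Ncmap had 0.61 and 0.92, and Mbp and S100b 0.80 and 0.65. Without those libraries the values were 0.68 and 0.83 for Ncmap, and 0.65 and 0.65 for S100b. Mbp and Sox10 had 0.70 and 0.64, which became 0.47 and 0.56 without those libraries. Ngfr had r between -0.46 and 0.20 against the other 7 genes in unwounded skin. In wounds its r was 0.62 with Sox10, 0.56 with Ncmap, 0.49 with Pmp22 and 0.45 with Mbp, and -0.09 with Mal. Without cheek mouse 1 these were 0.55, 0.43, 0.31, 0.25 and -0.29.

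Outside the 8, likeness to a member was read from the lower of a gene's 2 correlations. Among the genes most like Mbp and Prx was Ugt8a, an enzyme of myelin galactolipid synthesis, with 0.86 for Mbp and 0.92 for Prx, and Vat1l followed for Prx (0.86). The genes most like the mean profile of the 8 included Ugt8a (0.90), Cldn19, a claudin of the myelin sheath (0.86), Aatk (0.86) and Pllp, plasmolipin (0.79), then Vat1l, Fam178b, Dact1 and Pfkfb1 (0.70). Tmem204 (0.70) and Gjc3, a connexin of Schwann cells (0.69), were among those most like Sox10. Mal was closest to Cadm4 (0.71), Cadm2 and Cldn19. Some of these genes were near the floor. Ugt8a had a mean of 0.44 FPKM and reached 0.5 FPKM in 7 of 24 libraries, and the means of Vat1l and Cadm2 were 0.55 and 0.33 FPKM. Several of these values rested on the 2 libraries that stood apart. Without back mouse 3 the unwounded r of Mal with Cadm4 was 0.20, of Sox10 with Gjc3 0.52 and of Vat1l with the mean profile 0.53. Without cheek mouse 1 the wound r of Pllp with the mean profile was 0.52, of Ugt8a with Mbp 0.70 and of Vat1l with Prx 0.71.

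The other members had different neighbours. Pmp22 was closest to Timp2 (0.79), an inhibitor of matrix proteases, Serping1 (0.79), a complement regulator, and C1qtnf1 (0.79). Ngfr was closest to Evc (0.79), Ccl19, a chemokine, and Aldh3a1 (0.77). Ncmap was closest to Sparcl1 (0.75), Aatk and Tek, an endothelial receptor (0.71, with a wound r of 0.52 without cheek mouse 1), and S100b to St6galnac6 (0.75), Zic1 and Arsg (0.73).

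**Figure D4:**
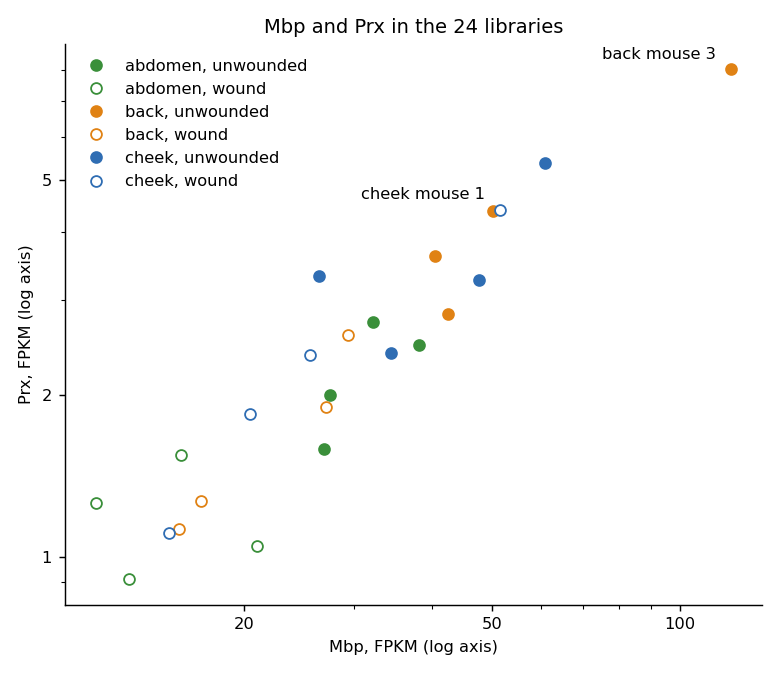
Mbp (horizontal) and Prx (vertical), both in FPKM on log axes, in the 24 libraries by site, with unwounded skin filled and wounds open. The points rise together (r = 0.89 in unwounded skin and 0.90 in wounds), with unwounded back skin of mouse 3 highest at 120.85 FPKM of Mbp and 8.02 FPKM of Prx.

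Other genes of the pathway were read from 6 lists. Of 16 other myelin sheath genes, 6 fell (Gal3st1, Cldn19, Pllp, Sh3tc2, Gjc3 and Gldn) and 2 rose (Gjb1 and Nfasc) in the mean over sites, against 29.4% lower and 33.3% higher of all tested genes, with a median effect of -0.20. The same shares of all tested genes stand behind the counts of the other 5 lists. Gal3st1, the sulphotransferase that makes sulphatide, fell by 0.84 on the log2 scale (limma adjusted p = 6.9e-06) in 12 of 12 mice. Gjb1, a gap junction connexin, rose by 1.81 (limma adjusted p = 2.1e-06) in 12 of 12 mice. Its group means were 0.425 FPKM in unwounded abdomen, 0.77 in back and 0.58 in cheek, and 4.05, 4.01 and 2.42 FPKM in the wounds of these sites. Nfasc, neurofascin, rose by 0.66 (limma adjusted p = 9.6e-05). Fa2h, the most abundant gene of the list with a mean of 385 FPKM and known from epidermis and sebaceous glands too, was at -0.19 (limma adjusted p = 0.12). Gjb1 is also made in epithelia.

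Of 9 tested genes of the whole Schwann lineage or of its non-myelinating cells, 5 fell (Scn7a, Adgrg6, Gfra3, Cdh19 and Lgi4) and 2 rose (Ncam1 and L1cam). Ncam1, an adhesion molecule that immature and non-myelinating Schwann cells carry and that regenerating muscle and other cells make, rose by 1.3 (limma adjusted p = 9.8e-06) in 12 of 12 mice. Muscle-forming genes moved with it, as 4 of 4 markers of regenerating muscle rose, and their part in the rise was not tested. Their summed level was 0.14 to 10.3 FPKM in unwounded abdomen, 3.70 to 25.6 in back and 5.12 to 19.2 in cheek, and 39.5 to 67.9, 50.6 to 60.2 and 16.2 to 141 FPKM in wounds. Erbb3, the neuregulin receptor of Schwann cells and the most abundant gene of this list, was at 0.03 (limma adjusted p = 0.73), with a sign that turned under quantile normalisation. Gfap, a marker of non-myelinating cells, reached at most 0.26 FPKM and was not tested.

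Of 12 tested Schwann cell transcription factors, 4 rose (Jun, Nfatc4, Tfap2a and Sox2) and 1 fell (Id4), so the share that rose was that of all tested genes (33.3%). Sox2 was near the floor, with a mean of 0.43 FPKM, and reached 0.5 FPKM in 7 of 24 libraries. Jun, which drives the repair state of Schwann cells and is made in most cells, rose from 29.8 ± 2.77 to 44.4 ± 2.64 FPKM in abdomen, from 24.1 ± 1.97 to 39.8 ± 4.37 FPKM in back and from 28.9 ± 3.67 to 40.8 ± 6.66 FPKM in cheek (SD, n = 4 each). Its mean effect was 0.59 (limma adjusted p = 7.9e-06), and it rose in 12 of 12 mice. Egr2, the master regulator of myelin genes, was at -0.06 (limma adjusted p = 0.69), with 15.9 to 22.2 FPKM as group means, far above Sox10, in a tissue where other cells make it. Id2, the most abundant of this list, was at 0.03 (limma adjusted p = 0.79), and its sign turned under median-ratio scaling and quantile normalisation.

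Of 6 tested genes of repair Schwann cells, Artn rose (0.69, limma adjusted p = 6.1e-05) and Btc (-1.23, 1.3e-06) and Bdnf (-0.26, 0.0067) fell. Artn, a GDNF-family growth factor for sensory neurons, was low, with group means of 0.24 to 0.30 FPKM in unwounded skin and 0.675 to 0.84 FPKM in wounds. Btc, an EGF-family ligand that epidermis also makes, was the most abundant of them. Bdnf was near the floor, with a mean of 0.345 FPKM, and reached 0.5 FPKM in 4 of 24 libraries.

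Among 12 tested neurotrophin and neuregulin ligands and receptors, 1 rose and 8 fell. Nrg1, the axonal signal for Schwann cells that other cells make too, rose by 1.33 (limma adjusted p = 3.7e-06) in 12 of 12 mice, from group means of 0.265 FPKM or less to 0.88 FPKM or more. Ntrk2 fell by 0.75 (limma adjusted p = 2.6e-05) and Ntf3 by 0.72 (6.9e-05), each in 12 of 12 mice. Nrtn, the most abundant gene here, fell by 0.26 (limma adjusted p = 0.026).

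Of the 13 axon and neuron genes, 9 did not reach 0.5 FPKM in any library, among them the 3 neurofilament genes Nefl, Nefm and Nefh (0.28 FPKM or less) and Calca (0.47 FPKM or less). Of the other 4, Tubb3 rose by 3.36 (limma adjusted p = 7.0e-06) and Uchl1 by 1.15 (4.2e-06), each in 12 of 12 mice, Stmn2 rose by 0.27 (0.012) and Gap43 was at 0.03 (0.82). Tubb3 had group means of 9.13 to 14.2 FPKM in wounds. In unwounded back skin it was near the floor, at 0.31 FPKM in mouse 3 and a mean of 0.34 FPKM in the other mice. Tubb3 and Uchl1 each reached 0.5 FPKM in 15 of 24 libraries. Which cells made these transcripts was not tested.

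**Figure D5:**
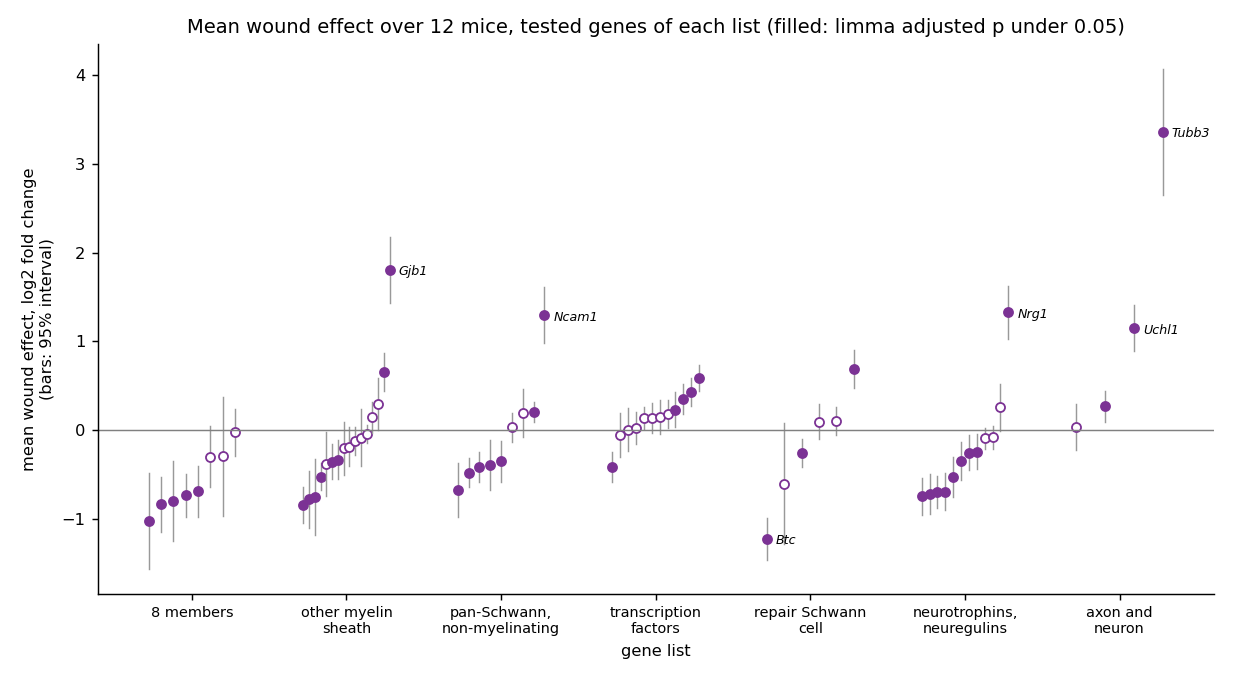
Mean wound effect over 12 mice (log2 fold change, vertical axis, with 95% intervals) of the 8 genes and of the tested genes of 6 lists, 1 point per gene; filled points have a limma adjusted p under 0.05. In the myelin list 6 of 16 genes fell and 2 rose, from Gal3st1 at -0.84 to Gjb1 at 1.81, and Tubb3 stands highest at 3.36.

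Cell types that enter or leave a wound moved at the same time. Markers of neutrophils (5 of 5) and macrophages (5 of 5) rose, and the summed neutrophil level went from 8.18 to 37.55 FPKM in the 12 unwounded libraries to 344 to 2388 FPKM in the 12 wounds. Fibroblast markers summed to 10655 to 14792 FPKM in unwounded abdomen, 12337 to 18180 in back and 6878 to 11693 in cheek, and to 6572 to 9503, 6469 to 9145 and 4112 to 7645 FPKM in wounds. Of 8 skeletal muscle markers, 8 fell in the mean over sites, against 29.4% of tested genes. By site, 6 fell in back, 0 in abdomen and 0 in cheek, against 17.9%, 16.0% and 16.9% of tested genes. The 8 markers summed to 491 to 14756 FPKM in unwounded abdomen, 13935 to 21809 in back and 11388 to 23123 in cheek. In wounds the sums were 1688 to 5171, 3097 to 4448 and 4785 to 6816 FPKM. Macrophage markers summed to 349.57 to 410 FPKM, 299 to 521 and 258 to 464.5 FPKM in unwounded skin of these sites, and to 498 to 685, 699 to 817 and 598 to 725 FPKM in wounds. The part of this change in tissue makeup in the values of the 8 genes was not tested.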

How the data were processed

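RNA of 24 skin libraries (unwounded and wound of 12 mice, 4 mice per site) was sequenced as paired reads of 100 bases. The authors aligned reads to mm10 with HISAT2 and Bowtie2 (2.2.5), estimated expression with RSEM (1.2.12) and deposited FPKM values per gene, rounded to 2 decimals. FPKM keep no counts, so the absolute depth is unknown and no interval for counting error is given. A further deposited table, which holds the DESeq2 results of 9 comparisons (log2 fold changes, adjusted p-values), was not used.

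Groups came from the sample labels, and each label gives a mouse number from 1 to 4 that recurs at every site. Since each animal was wounded at a single site, equal numbers at different sites were taken as different mice. FPKM were taken as log2(FPKM + 0.5), and a gene was kept if 4 or more libraries of the fit reached 0.5 FPKM. Wound effects were fitted in limma (3.58.1, R 4.3.3, statmod 1.5.0) with trend and robust moderation on 24 libraries with a term per mouse. Site differences were fitted on the 12 libraries of a state without a block. P-values were Benjamini-Hochberg adjusted over all tested genes of a comparison. Deviations of the 2 libraries of a mouse correlated by 0.322, 0.348 and 0.281 on average in abdomen, back and cheek (lowest -0.030), against -0.108, -0.116 and -0.0958 between different mice. On simulated data, 179 of 200 genes changed by a log2 fold of 1 were called for the back wound effect, with 12 others, among 14423 genes. For a change in back wounds alone, the test between sites called 137 of 200, with 7 others.

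Start regions were read from the RefSeq table of the GRCm38.p6 build for 6 of the 8 genes. Named genes were all 8 members. From each list they were the 3 with the largest mean effect among genes called at all 3 sites, and the gene of highest level. The 3 genes most like each member, and the 10 most like their mean, were named as well. Any other list gene was singled out with its values known. Some genes of the lists and neighbours of the members are not reported here, and list counts leave them out. The members and lists were chosen with earlier results of these data known. Alternatives were pseudocounts of 0.1 and 1, quantile normalisation, median-ratio scaling, a 1 FPKM filter and none, no trend or robust moderation, other blocks and library sets, a threshold of 0.001 and leaving out each mouse. Python 3.11.15, numpy 2.4.6 and pandas 2.3.3 were also used.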

Additional observations from a re-analysis of the deposited data

Results flagged for a closer look

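In 4 of the 48 groups of 4 libraries (8 genes in 6 groups), 1 library lay far from the other 3 by Dixon's criterion, which chance meets in about 1 of 20 groups. Mbp in unwounded back skin was 120.85 FPKM in mouse 3, with the next library at 50.17 FPKM. Mal in unwounded back skin was 11.57 FPKM in the same library, with the next at 4.20 FPKM. Ncmap in unwounded abdomen was 3.40 FPKM in mouse 3, with the next at 2.29 FPKM. S100b in abdomen wounds was 1.95 FPKM in mouse 2, with the next at 1.15 FPKM.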

How the results depend on the processing

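The count of the 8 genes that fell over 12 mice was 5 in all alternatives run except quantile normalisation, where Sox10 made it 6, and the threshold of 0.001, where it was 3. It was also 5 without any single mouse. In abdomen the count of 2 became 4 with no replicate block, 4 when the site was fitted on its own 8 libraries with the replicate block, 4 without back mouse 3 and cheek mouse 1 and 0 at the threshold of 0.001. In back the count of 5 became 2 without those 2 mice and 0 at that threshold. Over the alternatives in processing the limma adjusted p of Mbp in back ran from 0.0049 to 0.105, so it did not pass under all of them. S100b also passed in abdomen with a pseudocount of 0.1 (limma adjusted p = 0.044) and under quantile normalisation (0.033). In cheek the count of 0 became 1 under quantile normalisation, 2 with no replicate block and 1 without the 2 mice. Between unwounded back and abdomen it became 1 (S100b) in a fit of all 24 libraries. Between unwounded cheek and back it became 1 (Ngfr) with a pseudocount of 0.1, with no trend or robust moderation and with a block by mouse number, although equal numbers name different mice. The cause of these changes was not tested. Leaving out 1 mouse gave counts of 1 to 4 for abdomen, 2 to 5 for back and 0 to 2 for cheek wounds, 0 to 1 between unwounded back and abdomen (1 without abdomen mouse 4), 0 to 1 between unwounded cheek and back, and 1 to 5 relative to Sox10.

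Directions turned only in comparisons where the gene had not passed. Between cheek and abdomen wounds those of Pmp22 and Ngfr turned without cheek mouse 1. Without 1 mouse, Sox10 ranged from -0.50 to 0.033 in abdomen and from -0.14 to 0.012 in cheek, Ngfr from -0.18 to 0.33 in abdomen, -0.025 to 0.20 in back and -0.099 to 0.070 in the mean, and Mal from -0.89 to 0.077 in abdomen, from -0.12 to 0.62 in cheek and from -0.31 to 0.15 relative to Sox10. Id2 ranged from -0.029 to 0.087 and Erbb3 from -0.0069 to 0.084. Id2 was -0.0038 under median-ratio scaling and -0.055 under quantile normalisation, where Erbb3 was -0.035 and Sox10 passed the test at -0.37 (limma adjusted p = 0.049). Over all genes, the test of the difference between sites called 3 genes, and 9 with a pseudocount of 1, 8 with no trend or robust moderation, 5 under either rescaling, 1 with a pseudocount of 0.1, 1 with no replicate block and 315 without abdomen mouse 1. A fit of all 24 libraries moved the unwounded counts of 373, 358 and 147 genes to 1527, 1266 and 1055, and those between wounds of 178, 1519 and 351 to 91, 769 and 119. The block by mouse number gave 206 for unwounded back against abdomen, 91 for unwounded cheek against back, and 28 and 120 for these pairs of wounds. Median-ratio scaling gave 209 for unwounded back against abdomen. It gave 182 for wounds of cheek and back, and quantile normalisation 160, and no trend or robust moderation 106 for back against abdomen wounds. Without 1 mouse the 3 unwounded counts ranged from 109 to 543, 81 to 693 and 73 to 154, and the 3 wound counts from 22 to 285, 508 to 1703 and 48 to 1095. The wound effect in cheek fell from 5272 called genes to 3483 without cheek mouse 2. The files hold no counts, so what depth limits is unknown.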
